A study of Mus musculus with 6 samples.

Results

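The 10 genes described here mark or make endoderm in the mouse embryo. They are the transcription factor genes Gata4, Gata6, Sox7, Sox17, Foxa2 and Hnf4a, the endocytic genes Amn, Cubn and Dab2, and the growth factor receptor gene Pdgfra. They were taken by gene identifier from a table of 43309 genes, and all 10 were found in it. The rule takes them by name and sets no threshold on a measured value.

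Primitive endoderm forms in the blastocyst from cells of the inner cell mass that receive FGF signals, and it expresses Gata6, Pdgfra, Gata4, Sox17 and Sox7. Its descendants are the visceral endoderm, an absorbing epithelium that takes up maternal proteins through the receptor pair cubilin and megalin, and the parietal endoderm, which secretes basement membrane. Definitive endoderm arises later, at gastrulation, and also uses Sox17, Foxa2 and Gata factors, so several of the 10 genes are shared by both lineages. Embryonic stem cells come from the other part of the inner cell mass, the epiblast, and keep these genes low in culture.

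Messenger RNA was sequenced from 6 libraries of mouse embryonic stem cells of the J1 (129SV) background, which were grown in serum medium on gelatin with no feeder cells. The control group held 3 lines with the genotype Zbtb24 wild-type (2lox/+) and the other group 3 lines with the genotype Zbtb24 knockout (1lox/1lox), where Zbtb24 encodes a zinc finger transcription factor. Each library came from 1 line, and per the study the lines are clones that were derived independently. By their labels the control lines carry a 2lox allele beside a wild-type one, and no line is labelled +/+. The question addressed here was whether, and in which direction, these endoderm genes differed between the groups.

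The libraries held 25042261 to 28838924 counted fragments. Zbtb24 itself, on chr10:41450383-41465574 of the mm10 build, had 510, 512 and 489 counts in control against 888, 925 and 1039 in the second group, a log2 fold change of 0.99 with a standard error (SE) of 0.05 (adjusted p = 4.32e-23). The part of the gene that is missing from the 1lox allele is not given in the sources used here, so a count over the whole gene does not check the deletion, and the second group is called the libraries labelled knockout. The pluripotency gene Pou5f1, which defines such stem cells, stood at 842 CPM per kilobase of transcript (CPM being counts scaled to library size, with TMM factors) in the control group and 966 in the libraries labelled knockout. The libraries of a group differed by more than sampling noise, though for some pairs by little. The chi-square per gene against sampling alone ran from 1.14 (control libraries 2 and 3) to 2.24 (libraries 1 and 3 of the group labelled knockout). The SEs and adjusted p-values given here rest on this spread. Whether it covers the variation between independently derived lines was not tested.

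As a group, the endoderm genes were expressed at a trace, and 5 of the 10 differed between the groups while 5 did not pass the test. Sox7 and Cubn were higher in the libraries labelled knockout, and Gata4, Sox17 and Foxa2 were lower. A gene was called where the quasi-likelihood test of edgeR gave an adjusted p no higher than 0.05, and by that rule 69.5% of the 16823 genes tested were called, 34.4% higher and 35.2% lower. Among the 6574 genes whose mean count lay in the range of the 10 genes, 56.9% were called, 21.8% higher and 35.1% lower. The share of the 10 genes that was called, 50%, was lower than over all genes tested but near that of their count range. With 10 genes the remaining gap is not read as a result. Their median log2 fold change was -0.10, beside -0.00036 for all genes tested. The groups did not overlap in 4 of the 10 genes, beside 71.5% of all genes tested and 60.7% of those in the same count range. In whole cultures fewer cells of a type and less RNA per cell cannot be told apart.

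**Figure D1:**
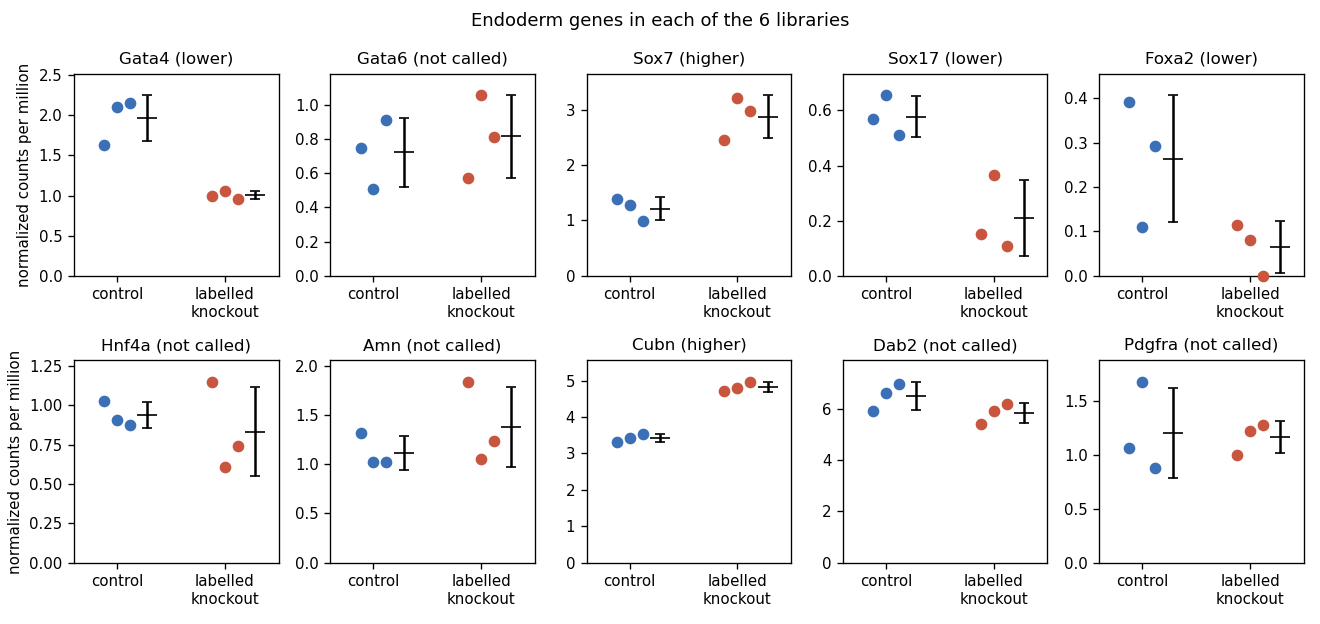
Each panel shows 1 endoderm gene, with CPM on a y axis that starts at 0, a point for each of the 3 control libraries (blue) and the 3 libraries labelled knockout (red), and a bar for the mean and SD. Sox7 and Cubn sit higher in every library labelled knockout, Gata4 and Sox17 sit lower in every one, and the points of Foxa2 and of the 5 genes not called overlap.

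All 10 genes passed the minimum of 10 counts in at least 1 library. Sox17 and Foxa2 passed only through the control libraries, and Foxa2 only through control library 1, so a fall was the direction in which these genes could most easily be called. The 10 genes together took 477 to 544 counts per library, at most 0.0019% of a library.

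To compare levels between genes, CPM values were divided by transcript length in kilobases. On this scale Dab2, which encodes a cargo adaptor of clathrin-coated pits, was the highest of the 10 in both groups, at 1.40 ± 0.12 (SD, n = 3) in control and 1.25 ± 0.087 in the libraries labelled knockout. In the control group Amn at 0.657 ± 0.10 and Gata4 at 0.578 ± 0.084 came next and overlapped each other. Sox7 and Cubn followed and also overlapped. Hnf4a, Gata6, Sox17, Pdgfra and Foxa2 lay between 0.124 and 0.215, and each overlapped its neighbour in that order. In the libraries labelled knockout Sox7 stood second at 0.873 ± 0.12 and overlapped Amn at 0.810 ± 0.24, while Gata4 had dropped to 0.295 ± 0.015, below Cubn and above Gata6 without overlap. The summed level of the 10 genes was 4.19 ± 0.017 in control and 4.33 ± 0.038 in the libraries labelled knockout. Each of the 10 lay between the 2.66th and the 32.1st percentile of the genes tested.

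**Figure D2:**
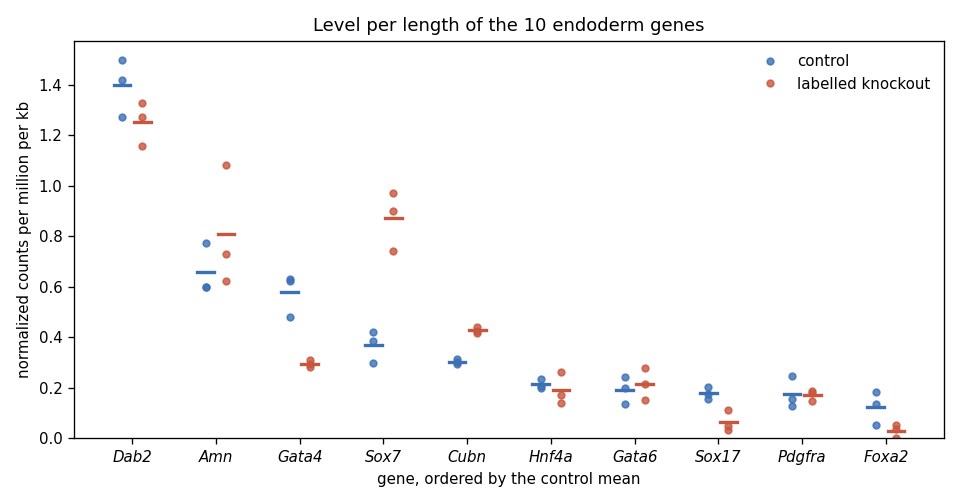
The y axis gives CPM per kilobase of transcript and the x axis the 10 genes in the order of their control mean, with a point per library and a bar for the mean of 3 libraries. Dab2 leads in both groups, Sox7 moves up from 0.368 to 0.873, and Gata4 moves down from 0.578 to 0.295.

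The GATA factors of the endoderm did not move together. Gata4 (ENSMUSG00000021944, chr14:63198922-63271692, minus strand, 7 exons), a zinc finger activator of extraembryonic and definitive endoderm genes and of heart genes, had 46, 58 and 59 counts in control and 26, 26 and 27 in the libraries labelled knockout. Each control library lay above each of the others. Gata4 fell by 0.97 on the log2 scale (SE 0.19, 95% interval -1.36 to -0.58, adjusted p = 1.89e-05). Gata6 (ENSMUSG00000005836, chr18:11052064-11085635, plus strand), the factor that starts the primitive endoderm programme, had 21, 14 and 25 counts in control and 15, 26 and 23 in the libraries labelled knockout. Control library 2 was the lowest of the 6 and library 2 of the group labelled knockout the highest, and the other libraries of both groups lay between them. Its log2 fold change was 0.17 with an interval of -0.39 to 0.72 (adjusted p = 0.609), which takes in no change as well as falls and rises of those sizes.

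Of 12 relatives and cofactors of the 10 genes, 10 could be tested, of which 8 were lower and 2 did not pass the test, with a median log2 fold change of -0.94. Gata5 and Hnf4g were too rarely counted to be tested, with at most 2 counts. The other GATA genes were lower. Gata2, a factor of blood progenitors and trophoblast, had 192, 197 and 209 counts in control and 54, 42 and 67 in the libraries labelled knockout (log2 fold change -1.80, SE 0.12, adjusted p = 1.71e-18). Gata1, which drives red cell and megakaryocyte genes, changed by -0.87 (adjusted p = 1.77e-06) and Gata3, a trophoblast and T cell factor, by -1.48 (adjusted p = 8.17e-13). Zfpm2, a cofactor that binds GATA4, went from 35, 34 and 40 counts to 8, 7 and 8 (log2 fold change -2.15, adjusted p = 6.19e-09), and reached the count minimum only through the control libraries, whereas its relative Zfpm1 did not pass the test (log2 fold change -0.16, adjusted p = 0.0582). Gata1, Gata3, Zfpm1 and Zfpm2, like Sox18, Foxa1 and Foxa3 below, were named after their values were seen.

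The SOX factors of the F group split in direction. Sox7 (ENSMUSG00000063060, chr14:63943673-63950732, plus strand, 2 exons), a factor of parietal and visceral endoderm and of blood vessels, had 39, 35 and 27 counts in control and 64, 79 and 84 in the libraries labelled knockout. Every library labelled knockout lay above every control library. Sox7 rose 2.36-fold (log2 fold change 1.24, SE 0.17, 95% interval 0.90 to 1.58, adjusted p = 1.05e-08).

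Sox17 (ENSMUSG00000025902, chr1:4490931-4497354, minus strand), which maintains primitive endoderm and specifies definitive endoderm, went the other way, with 16, 18 and 14 counts in control and 4, 9 and 3 in the libraries labelled knockout. These did not overlap, but library 2 of the group labelled knockout lay nearer to the controls than its companions. Sox17 fell by 1.49 on the log2 scale (SE 0.42, 95% interval -2.33 to -0.65, adjusted p = 0.0016). Over the summed counts, 48 against 16, the normalized control level was 2.85 times that of the libraries labelled knockout, with an exact interval for counting error alone of 1.59 to 5.38. Sox18, the remaining gene of the group and a factor of vessels, had 54, 47 and 52 counts in control and 19, 18 and 18 in the libraries labelled knockout (log2 fold change -1.40, SE 0.21, adjusted p = 1.01e-07). The intervals of Sox7 and of each of its relatives lay on opposite sides of 0.

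Foxa2 (ENSMUSG00000037025, chr2:148042877-148046969, minus strand), a forkhead factor that opens chromatin at endoderm and node genes, was the least counted of the 10. It had 11, 3 and 8 counts in control and 3, 2 and 0 in the libraries labelled knockout, so the groups overlapped at 3 counts. Foxa2 fell by 1.99 on the log2 scale, with an SE of 0.72 and an interval of -3.43 to -0.55 (adjusted p = 0.0126). Without library 3 of the group labelled knockout, which had no Foxa2 fragment, the log2 fold change was -1.38 (adjusted p = 0.0932), and without control library 1 the gene did not reach the count minimum. The call therefore rested on single libraries. The other members of the family, which share liver and gut targets with Foxa2, were counted somewhat more often: Foxa1 had 21, 24 and 27 counts against 11, 14 and 18 (log2 fold change -0.67, adjusted p = 0.0325), and Foxa3 had 55, 46 and 54 against 26, 21 and 26 (log2 fold change -1.01, adjusted p = 1.31e-05).

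Hnf4a (ENSMUSG00000017950, chr2:163506808-163572910, plus strand), a nuclear receptor that drives secreted protein and lipid genes of the visceral endoderm and liver, had 29, 25 and 24 counts in control and 30, 15 and 21 in the libraries labelled knockout. Those spanned the whole control range. Its log2 fold change was -0.17 (SE 0.25, 95% interval -0.68 to 0.34, adjusted p = 0.569). Of the 6 transcription factor genes, then, 1 was higher, 3 were lower and 2 did not pass the test. The share called was 66.7%, beside 69.5% of all genes tested and 56.9% of those in the count range of the 10 genes. Of the 3 lower, Sox17 and Foxa2 passed the count minimum only through control libraries, and the Foxa2 groups overlapped.

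Cubn and Dab2 had the most counts of the 10 genes. Cubn (ENSMUSG00000026726, chr2:13276338-13491813, minus strand, 67 exons) encodes cubilin, the large receptor that binds vitamin B12 carriers and proteins at the visceral endoderm surface. It had 93, 94 and 97 counts in control and 123, 118 and 140 in the libraries labelled knockout. Both groups were tight and stood apart, at 3.42 ± 0.11 and 4.82 ± 0.13 CPM (SD, n = 3). Cubn rose 1.41-fold (log2 fold change 0.50, SE 0.11, 95% interval 0.27 to 0.72, adjusted p = 0.000117). Amn (ENSMUSG00000021278, chr12:111271095-111276426, plus strand) encodes amnionless, the membrane anchor without which cubilin does not reach the surface. Amn had 37, 28 and 28 counts in control and 48, 26 and 35 in the libraries labelled knockout. These overlapped, and library 1 of the group labelled knockout was the highest of the 6. Its log2 fold change was 0.30 (SE 0.22, 95% interval -0.13 to 0.74, adjusted p = 0.214), an interval that takes in both no change and the change of Cubn.

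Dab2 (ENSMUSG00000022150, chr15:6299788-6440712, plus strand), the adaptor that links the tails of these receptors to clathrin, had 167, 182 and 192 counts in control and 141, 146 and 175 in the libraries labelled knockout. Library 3 of the group labelled knockout lay within the control range and the other two below it. Its log2 fold change was -0.16 (SE 0.095, 95% interval -0.35 to 0.04, adjusted p = 0.145), the narrowest interval of the 10. Dab1, the neuronal relative that transmits reelin signals, had 415, 352 and 401 counts in control and 332, 259 and 337 in the libraries labelled knockout (log2 fold change -0.26, SE 0.071, adjusted p = 0.00125).

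The partners of these endocytic genes were lower, while none of the 3 genes themselves was called lower. Lrp2 encodes megalin, the receptor that works beside cubilin. It had 3626, 3263 and 3447 counts in control and 603, 656 and 710 in the libraries labelled knockout, 4.99-fold lower (log2 fold change -2.32, SE 0.04, adjusted p = 2.97e-42). Lrpap1, the chaperone of megalin and its relatives, changed by -1.19 (adjusted p = 2.34e-33). Myo6, the motor that Dab2 couples to endocytic vesicles, changed by -0.60 (adjusted p = 2.91e-09). All 5 partners tested were lower, and their summed level went from 372 to 376 CPM in control to 161 to 170 in the libraries labelled knockout.

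Pdgfra (ENSMUSG00000029231, chr5:75152292-75198215, plus strand), the receptor tyrosine kinase that marks primitive endoderm from the blastocyst on and also mesenchyme, had 30, 46 and 24 counts in control and 26, 30 and 36 in the libraries labelled knockout. Control libraries spread more widely than the others and enclosed them. Its log2 fold change was -0.05 (SE 0.22, 95% interval -0.50 to 0.40, adjusted p = 0.862). The ligands of the family were lower beside it. Pdgfb changed by -1.77 (SE 0.089, adjusted p = 3.87e-23) and Pdgfc by -0.62 (adjusted p = 7.39e-10), and Pdgfa, the ligand of the blastocyst, by -0.39 (adjusted p = 3.08e-09). The receptors that take up the FGF signal fell as well. Fgfr2 had 632, 639 and 624 counts in control and 155, 154 and 166 in the libraries labelled knockout (log2 fold change -1.92, SE 0.068, adjusted p = 2.49e-29), and Fgfr1 changed by -0.97 (SE 0.031, adjusted p = 4.72e-31). Fgf4, the FGF ligand that stem cells secrete, was at 53.9 CPM per kilobase in control and 56.2 in the libraries labelled knockout. Of the 8 signal genes 6 were lower and 2 were higher, with a median log2 fold change of -0.79, and 1 of the lower ones, Pdgfd, reached the count minimum in control only. The higher ones were Fgf4 at 0.06 (adjusted p = 0.0368) and Grb2, an adaptor of receptor kinases, at 0.07 (adjusted p = 0.027), and neither passed with DESeq2 or with library totals as the scaling. Pdgfa, Pdgfd, Fgf4 and Grb2 were named after their values were seen.

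**Figure D3:**
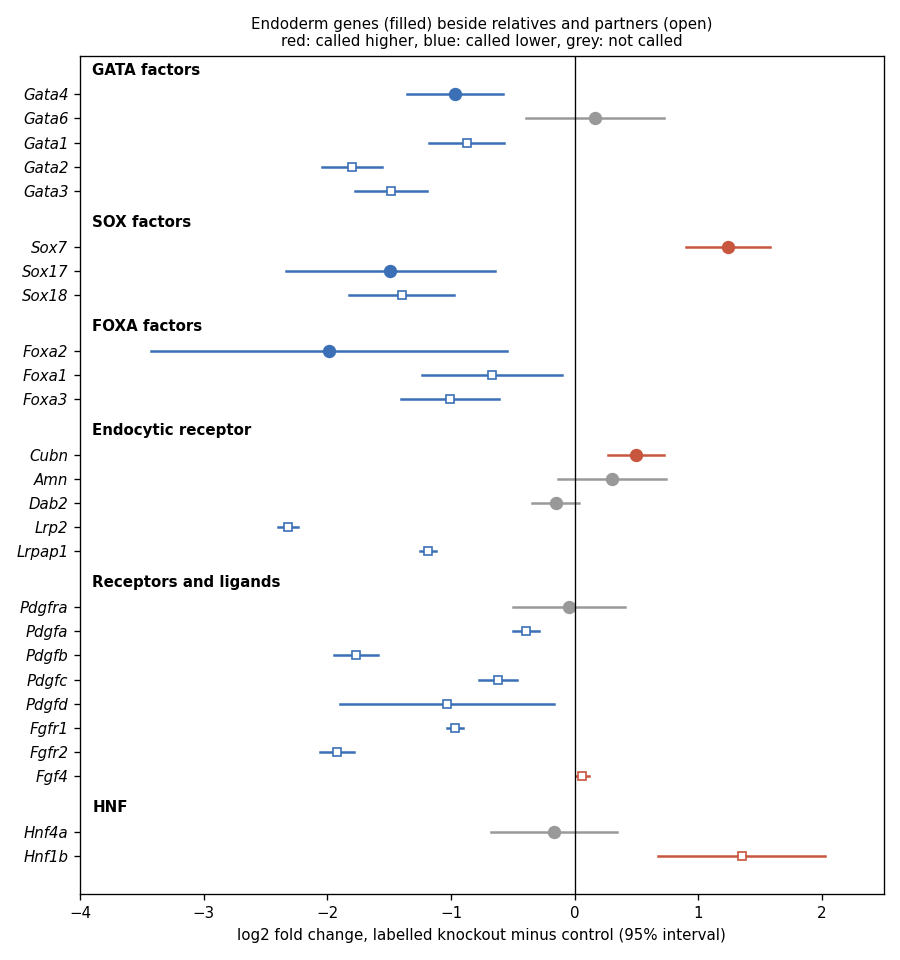
Log2 fold changes (x axis, labelled knockout minus control) with 95% intervals are drawn for the 10 endoderm genes as filled circles and for relatives, partners and signals as open squares, red where higher, blue where lower and grey where the test was not passed. The intervals of Sox7 (0.90 to 1.58) and Cubn (0.27 to 0.72) lie right of 0, while those of Lrp2, of Fgfr2 and of every GATA, SOX and FOXA relative drawn lie left of it.

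Genes that the endoderm factors share a lineage with differed within each list. Of the 14 visceral endoderm genes 9 could be tested, and 3 were higher and 4 lower, with a median log2 fold change of -1.15. Amot, which encodes a junction protein, had 984, 871 and 927 counts in control and 336, 333 and 387 in the libraries labelled knockout (log2 fold change -1.32, adjusted p = 9.61e-27). Among the secreted proteins of the visceral endoderm, Afp had 1 to 3 counts in any library, Ttr at most 2 and Apoa1 at most 6, while others were counted more often. The retinol carrier gene Rbp4 had 37, 44 and 41 counts in control and 71, 69 and 76 in the second group and rose by 0.90 on the log2 scale (adjusted p = 2.2e-06). The apolipoprotein gene Apob had 39, 30 and 35 against 25, 31 and 34 and did not pass the test (log2 fold change -0.13, adjusted p = 0.58), and Apom had 33, 30 and 31 against 18, 12 and 10 (log2 fold change -1.15, adjusted p = 0.000186). These secreted protein genes were named after their values were seen. Within this list Bmp2 and Lhx1 reached the count minimum in control only and Ihh in the second group only.

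Of the 15 parietal endoderm genes 4 were higher and 9 lower, with a median log2 fold change of -0.48. Krt19, a keratin of simple epithelia, fell from 1697, 1819 and 1726 counts to 190, 163 and 185 (log2 fold change -3.21, adjusted p = 5.38e-42). The chains of collagen IV fell too, with log2 fold changes of -2.29 for Col4a2 and -1.72 for Col4a1, whereas the laminin chain gene Lama1 rose by 0.69. These basement membrane genes are also expressed by stem cells in culture. The summed level of the list was 1355 to 1374 CPM in control and 1379 to 1411 in the libraries labelled knockout. The best-counted genes of the list were both among the higher ones: Sparc, at means of 385 and 428 CPM, and Lamc1, at 385 and 487. Sparc and Lamc1 were named after their values were seen.

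Of the 13 definitive endoderm genes 10 could be tested, and 5 were higher and 3 lower, with a median log2 fold change of 0.33. Eomes, a T-box factor upstream of definitive endoderm, rose by 0.40 (adjusted p = 0.000676) and Cpm, a membrane carboxypeptidase, by 0.90. Otx2, a homeobox factor of anterior tissue and of epiblast, fell by 0.91, and Prdm1, a repressor also used by germ cells, fell by 0.81. Dkk1, among the lower ones, reached the count minimum in control only. Cer1, a secreted antagonist made by anterior endoderm, had at most 3 counts in any library.

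Markers of other cells moved with the groups. Of the 8 feeder fibroblast genes 7 could be tested and were lower, but Col3a1, Postn, Dcn and Twist2 reached the count minimum in the control libraries only, so for these 4 a fall was the direction in which a call could most easily come. The summed level of the list was 56.3 to 59.8 CPM in control and 9.53 to 10.2 in the libraries labelled knockout, although the cultures had no feeder cells. Col1a1 had 1095, 1126 and 1188 counts against 92, 110 and 107 (log2 fold change -3.39), and Col1a2, the other chain of collagen I, changed by -3.15. Thy1, a surface protein of fibroblasts and other cells, changed less, from 244, 233 and 211 counts to 137, 119 and 130 (log2 fold change -0.76, adjusted p = 6.27e-10). Lum was at 0 in every library. Of the 12 pluripotency genes 9 were higher and 3 lower, with summed levels of 4394 to 4480 and 5991 to 6019 CPM. The log2 fold change was 0.20 for Pou5f1, 0.43 for Sox2, 1.13 for Nanog, 1.16 for Esrrb, 1.45 for Tbx3, 1.56 for Tfcp2l1 and 1.90 for Klf4. The 3 lower genes were Zfp42 at -0.77 (means of 809 and 474 CPM), Klf2 at -0.17 and Dppa3 at -0.11. These 3 were named after their values were seen. These levels moved in the same samples as Gata4, Sox17, Foxa2, Sox7 and Cubn, and their part in those results was not tested.

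**Figure D4:**
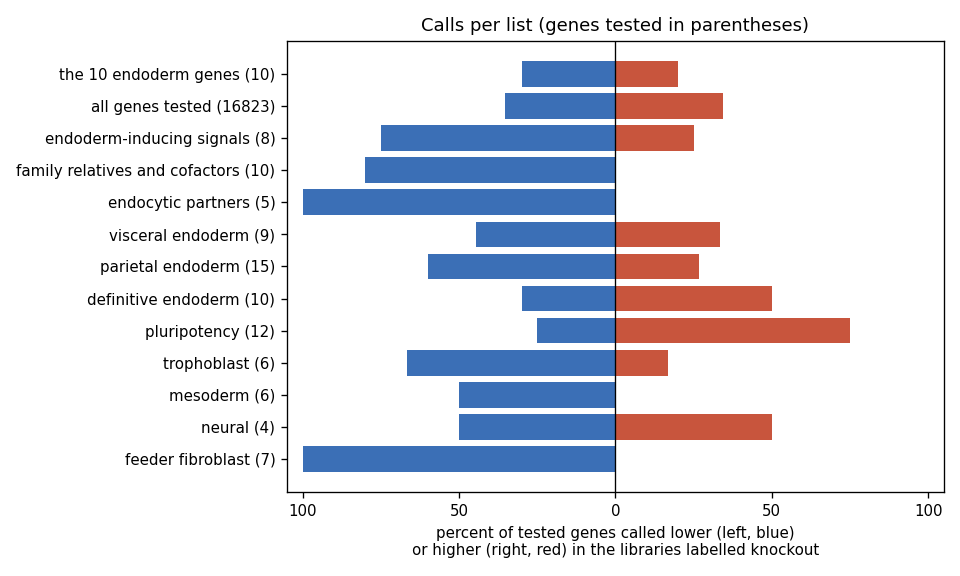
Bars give the percent of the tested genes of each list that were lower (left, blue) or higher (right, red) in the libraries labelled knockout, with the number tested in parentheses. The bars of the 10 endoderm genes are shorter than those of all 16823 genes tested. Among genes in their count range 56.9% were called, near the 50% of the 10. All 5 endocytic partners and all 7 feeder fibroblast genes, 4 of which reached the count minimum in control only, lie on the left.

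Gata4 and Sox7, which moved in opposite directions, lie on the same chromosome, with start sites 672 kb apart. Of the 5 genes tested between them, 2 were lower, 2 were higher and 1 did not pass. Fam167a changed by -0.90 (adjusted p = 2.67e-14) and Xkr6 by -0.87 (adjusted p = 6.76e-17), while Tdh, the threonine dehydrogenase that mouse stem cells depend on, changed by 0.59 (adjusted p = 1.49e-27) and Pinx1 by 0.18 (adjusted p = 0.000652). The nearest gene tested on the far side of Gata4, Neil2, was higher by 0.34. Within 1 Mb of either start site 21 genes were tested, these included, of which 12 were higher, 7 lower and 2 not called. The median log2 fold change over chromosome 14 was 0.04. Fam167a, Xkr6 and Tdh were named after their values were seen.

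**Figure D5:**
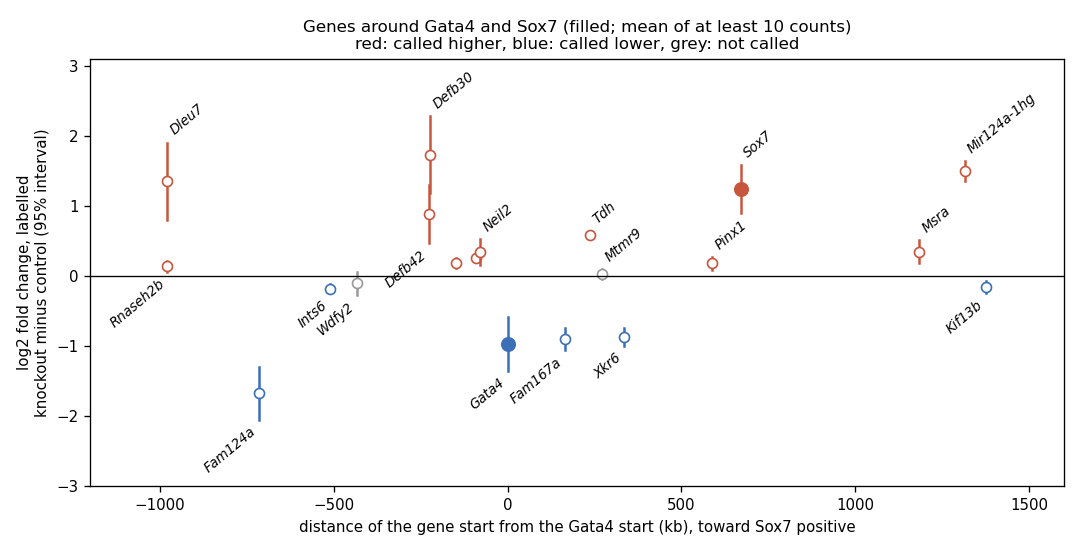
Log2 fold changes (y axis, labelled knockout minus control, with 95% intervals) of genes averaging 10 counts or more are placed by the distance of their start from that of Gata4 in kb (x axis, toward Sox7 positive), red where higher, blue where lower and grey where not called. Gata4 at -0.97 and Sox7 at 1.24 are filled, and the genes between them range from -0.90 to 0.59.

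Of the 20 nearest tested neighbours of the 10 genes, 7 were higher, 8 lower and 5 not called. Trdmt1, beside Cubn, rose with it by 0.79 (adjusted p = 2.77e-15), as did Rsu1 on its other side by 0.09 (adjusted p = 0.0312). Kit, the receptor gene next to Pdgfra, rose by 1.60 (adjusted p = 5.15e-40) while the log2 fold change of Pdgfra was -0.05. The antisense transcript Gm13270 within Cubn had 2 to 12 counts, and the counting used strand. The median over chromosome 1, which holds Sox17, was 0.50 on the log2 scale, against -0.03 to 0.04 for the other chromosomes that hold the 10 genes. Of the nearest genes tested beside Sox17, Gm6123 was lower as well (log2 fold change -1.01, adjusted p = 3.01e-05) and Gm37381 did not pass the test (0.25, adjusted p = 0.182).

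The gene profiles most like that of Cubn over the 6 libraries, among 11114 genes averaging 100 counts or more, were those of Wsb1, Ttc3 and Ufc1. The Euclidean distances between the centred profiles of log2(CPM + 1) were 0.0252, 0.0319 and 0.0323. Their log2 fold changes were 0.39, 0.40 and 0.40, beside 0.50 for Cubn. The added 1 shrinks the change of a gene at few CPM, such as Cubn, so which genes came nearest depends on it.

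RefSeq promoters of 300 bases (250 before and 50 after the start, GRCm38.p6) were found for 6 of the 10 genes, in 10 entries, and for none of Gata4, Gata6, Sox7 and Sox17. They were searched on both strands for the letters AGATAA or TGATAA that GATA factors bind. These occurred in 3 of the 10 entries, against 18.6% of 32851 promoters. The FOX letters TGTTTAC or TGTTTGC (8.48% of promoters), the SOX letters AACAAT (10.7%) and CAGGACCT, a core of the motif reported for ZBTB24 (1.99%), occurred in none of the 10. The promoter of Cubn at chr2:13491827-13492126 and that of Foxa2 at chr2:148046920-148047219, both on the minus strand, are shown because these genes were called, and they hold none of the letters. The Hnf4a promoter at chr2:163506607-163506906, plus strand, holds AGATAA and is not shown. The inner Foxa2 promoter at chr2:148045415-148045714, minus strand, and the Dab2 promoter at chr15:6299539-6299838, plus strand, are shown as examples that hold GATA letters, printed in capitals.
Cubn: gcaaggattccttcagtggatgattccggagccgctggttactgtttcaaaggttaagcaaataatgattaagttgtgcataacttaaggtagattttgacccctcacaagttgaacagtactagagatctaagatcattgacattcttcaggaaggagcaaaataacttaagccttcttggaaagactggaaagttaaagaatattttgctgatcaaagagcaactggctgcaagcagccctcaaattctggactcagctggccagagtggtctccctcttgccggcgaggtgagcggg
Foxa2 outer: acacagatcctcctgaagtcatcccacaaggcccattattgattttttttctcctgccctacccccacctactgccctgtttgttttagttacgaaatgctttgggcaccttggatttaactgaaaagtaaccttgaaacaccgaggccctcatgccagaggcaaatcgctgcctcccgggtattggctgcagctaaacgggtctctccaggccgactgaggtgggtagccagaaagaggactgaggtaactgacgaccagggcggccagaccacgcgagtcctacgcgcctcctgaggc
Foxa2 inner: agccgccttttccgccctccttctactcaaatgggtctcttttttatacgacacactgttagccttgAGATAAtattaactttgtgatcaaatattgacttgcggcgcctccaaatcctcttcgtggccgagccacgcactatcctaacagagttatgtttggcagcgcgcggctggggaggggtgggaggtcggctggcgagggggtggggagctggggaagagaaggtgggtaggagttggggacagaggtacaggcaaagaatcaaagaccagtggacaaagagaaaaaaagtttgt
Dab2: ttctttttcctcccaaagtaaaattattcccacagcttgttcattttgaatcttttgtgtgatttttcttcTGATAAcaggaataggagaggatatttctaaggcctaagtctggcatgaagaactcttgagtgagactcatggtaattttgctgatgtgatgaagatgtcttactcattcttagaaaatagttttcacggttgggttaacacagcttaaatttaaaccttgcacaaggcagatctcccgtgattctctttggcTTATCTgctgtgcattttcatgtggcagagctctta
The inner Foxa2 sequence holds AGATAA, and the Dab2 sequence holds TGATAA and, after the start, TTATCT, the same letters as AGATAA on the other strand. A match of this kind is a description of the letters and not of binding, and the gene with the most matches, Dab2, did not pass the test.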

How the data were processed

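Polyadenylated RNA was prepared with the TruSeq Stranded mRNA kit from 2 µg total RNA with 8 PCR cycles. The authors removed ribosomal reads with Bowtie2, aligned the rest to mm10 with TopHat and counted fragments per gene by strand with HTSeq in union mode on GENCODE M4, discarding antisense and ambiguous fragments. The submitters' processing notes list CASAVA 1.8.2, Bowtie2 2.1.0, TopHat2 2.0.10 and HTSeq 0.6.1. The deposited values are raw counts per gene, 1 column for each of 6 libraries. Multi-mapping fragments were dropped, which lowers genes with close copies.

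Here genes that reached 10 counts in any 1 library were tested with edgeR 4.0.16 (R 4.3.3), TMM scaling, the quasi-likelihood test and Benjamini-Hochberg adjustment over all genes tested, with a threshold of 0.05. The fit used all 6 libraries, the libraries labelled knockout minus control, with no covariate. SEs are the log2 fold change over the square root of F, and 95% intervals use the fit's degrees of freedom. Intervals of summed counts are exact and cover counting error only. The script was tested on simulated data. Of the 43309 genes 42425 were matched to GENCODE M21 on GRCm38, the source of symbols, positions and longest transcripts.

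The 10 genes and the 11 other lists were chosen with earlier results of these data known, so lists are given by counts and medians without a test. From each other list at most 4 genes were named, those with the largest change among called genes averaging 100 counts or more; Zbtb24, Pou5f1, Sox2 and Nanog as checks of the labels, defining markers at 0, nearest neighbours and the 3 profiles most like the best-counted called gene were added. Further genes were named after their values were seen, and 1 gene that the rule names among the endocytic partners is not reported here. Alternatives were DESeq2 1.42.0, other scalings and filters, a replicate block, a fold minimum and leaving out each library.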

Additional observations from a re-analysis of the deposited data

How the results depend on the processing

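Sox7, Cubn, Gata4 and Sox17 kept their direction and an adjusted p of at most 0.05 under every other tool, scaling, filter, block and left-out library, but Cubn (0.50) and Gata4 (-0.97) were not called once a log2 fold change of at least 1 was also required. Foxa2 lost its call without library 3 of the group labelled knockout (-1.38), and it was not tested under edgeR's filterByExpr or without control library 1. With that fold minimum 2865 genes were called, and the 10 endoderm genes gave 1 higher and 2 lower. That setting left 0 signals higher and 3 lower, 5 family relatives lower, 2 endocytic partners lower, 0 parietal genes higher, 2 definitive genes higher and 1 lower, 5 pluripotency genes higher and 0 lower, 0 trophoblast genes higher, and 1 neural gene higher and 1 lower. The signals called higher numbered 0 with DESeq2, 0 with library totals, 1 under filterByExpr, and 0 to 2 when single libraries were left out. Feeder fibroblast genes lower numbered 4 under filterByExpr and 5 to 7 with single libraries left out. With single libraries left out, the endoderm genes called lower numbered 2 to 3, and genes not called changed sign: Gata6 ranged from -0.046 to 0.36 (-0.03 without control library 2), Hnf4a from -0.46 to 0.00089, and Pdgfra from -0.23 to 0.26 (0.05 without library 1 of the group labelled knockout). The causes of these shifts were not tested, except that filterByExpr tests fewer genes and the fold minimum asks for larger changes.

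Libraries with the same number in both groups did not deviate together (correlations 0.0062, 0.072 and 0.015), and not every library correlated best with its own number, so the numbers gave no pairing. With the replicate block 11801 genes were called, and 2 of the 10 endoderm genes were higher and 3 lower. DESeq2 called 10326 genes. Depth limits the genes with few counts, such as Foxa2, whose SE was 0.72 against 0.095 for Dab2.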

Other observations

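Lists of other lineages were mixed. Of the 8 trophoblast genes 6 could be tested, and 1 was higher and 4 lower, with a median log2 fold change of -0.89. Krt7, a simple epithelial keratin, had 384, 452 and 421 counts in control and 43, 44 and 47 in the libraries labelled knockout (log2 fold change -3.15, adjusted p = 4.69e-30), whereas Tfap2c, a factor that trophoblast shares with germ cells, rose by 0.41. Tpbpa, which marks the spongiotrophoblast, was at 0 in every library. Of the 6 mesoderm genes tested 3 were lower and 3 did not pass the test, and Hand1, a factor of extraembryonic mesoderm and trophoblast, changed by -3.15 (adjusted p = 1.87e-24). Of the 4 neural genes tested 2 were higher and 2 lower: Nes, an intermediate filament of progenitors, changed by -2.33 and Pax6 by -0.44, while Tubb3, a neuronal tubulin, changed by 0.42.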
